A study of Homo sapiens with 191 samples.

Results

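The collagen and laminin genes were taken as all protein-coding genes with a symbol of the collagen pattern (COL, type, A, chain) or of the laminin pattern (LAMA, LAMB or LAMC and a number). This gave 44 collagen and 12 laminin genes, 56 of 20090 protein-coding genes in the annotation. Accessibility was measured by single-cell ATAC-seq in GM12878, an established human B lymphoblastoid line that carries Epstein-Barr virus. Fixed and permeabilised cells were transposed together, received no antibody or treatment, and were then sorted singly into 2 plates (96 and 95 libraries), all of 1 group. All values derive from a single deposited list of 50000 regions called on the pooled cells, in hg19 coordinates, and it has neither replicates nor values for single cells. Each region has a score, the authors' −log10 of the q-value, which ranks regions within the list (median 31.6, lowest 16.0). The list holds no read counts, and the methods do not say whether libraries that failed the single-cell filter were among the cells pooled. A gene without a region is one below its limit and not one shown to be closed.

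Collagens and laminins build the extracellular matrix. Collagen chains wind into helical molecules that form fibrils (the fibrillar collagens), the network of basement membranes (collagen IV), beaded filaments (collagen VI) or attachments to fibrils (the FACIT collagens). Laminins combine an alpha, a beta and a gamma chain and form the sheet of basement membranes to which epithelial, muscle and endothelial cells attach. The main producers are fibroblasts, epithelial and endothelial cells, and B cells are not known as a major source.

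Marker genes of B cells and of other cell types were counted first. A promoter region means a region centred within 1 kb of an annotated transcription start site (TSS), and 57.2% of all protein-coding genes had one. It was present at 8 of 10 B cell markers, led by BLK (score 508), POU2AF1 (414) and EBF1 (231). The lowest scores among them were those of CD79B (49.1), CD79A (34.7) and SPIB (28.6), while CD22 was among those with none. The lists of other cell types held 4 of 10 fibroblast and stroma markers, 2 of 9 endothelial markers and 3 of 10 epithelial markers. Each list is short, and no share was tested against that of all genes. The fibroblast markers were PDGFRB and PRRX1 (both 22.8), TWIST1 (18.7) and FAP (17.3), with PDGFRA, DCN, LUM and POSTN without a promoter region. ESAM, an adhesion molecule also found outside endothelium, had the only score above 100 in these 3 lists (108.2). The part of other cells in the results below was not tested.

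Of the 56 collagen and laminin genes, 20 had a promoter region (35.7%, exact binomial 95% interval 23.4 to 49.6), against 57.2% of all protein-coding genes. The upper bound of this interval lies below that share, and genes are not replicates, so the interval covers counting error only. The 44 collagen genes included 13 with a promoter region (29.5%, interval 16.8 to 45.2) and the 12 laminin genes 7 (58.3%, interval 27.7 to 84.8). These intervals overlap, and the difference between the families was not tested. Collagen and laminin genes are long, with a median span of 124.9 kb against 27.3 kb for all genes, and have a median of 8 annotated TSSs against 5. Genes of like span had a promoter region in 68.2% of cases, and genes of like span and TSS number in 69.5%.

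At the main start of the gene the count was 12 of 56 (21.4%, interval 11.6 to 34.4), against 53.0% of all protein-coding genes with a canonical TSS, the start of the transcript that the annotation ranks first. The remaining 8 members were accessible at another annotated TSS alone. Thus 60.0% of the accessible collagen and laminin genes had a region at the canonical TSS, against 91.6% of all accessible genes. Of the 8 others, COL21A1, COL4A2 and LAMA3 had the region at the TSS of a protein-coding transcript. At LAMA2 and LAMB2 it was that of a retained-intron transcript and at LAMA5 of a nonsense-mediated decay transcript. At COL9A2 and COL27A1 the transcript had no defined coding sequence. Such TSSs may not be true promoters, which was not tested. The 12 genes with a region at the canonical TSS comprised 9 of the 44 collagens and 3 of the 12 laminins. Both observed shares lay below 53.0%, but the laminin count is small and neither share was tested. The collagens were COL19A1, COL1A1, COL1A2, COL4A3, COL4A4, COL24A1, COL12A1, COL22A1 and COL9A1. The laminins were LAMB3, LAMC1 and LAMA4.

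The promoter regions that were present had low scores. The strongest promoter region of each of the 20 genes had a median score of 28.6 (quartiles 24.3 and 37.4), against 129.6 over all 11499 accessible genes (quartiles 49.1 and 334). COL19A1 had a score of 234, LAMA5 stood at the lower quartile of all accessible genes (49.1), and the other 18 scored below it. After LAMA5, LAMB3 (47.4), COL1A1 and LAMC1 (both 41.0), and COL4A3, COL4A4 and COL24A1 (all 36.2) came next. COL12A1 (33.1), LAMA3 (30.1), COL1A2, COL4A2 and LAMB2 (all 27.2), COL9A2 (25.7), and LAMA4 and LAMA2 (both 24.3) lay in the middle. COL22A1 and COL27A1 (both 18.7) and COL9A1 and COL21A1 (both 17.3) stood close to the limit of the list. The centre of the strongest region lay a median of 418 bp from the nearest TSS of its gene, against 87 bp over all accessible genes, and within 100 bp at 35.0% of the 20 genes, against 55.1%.

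**Figure D1:**
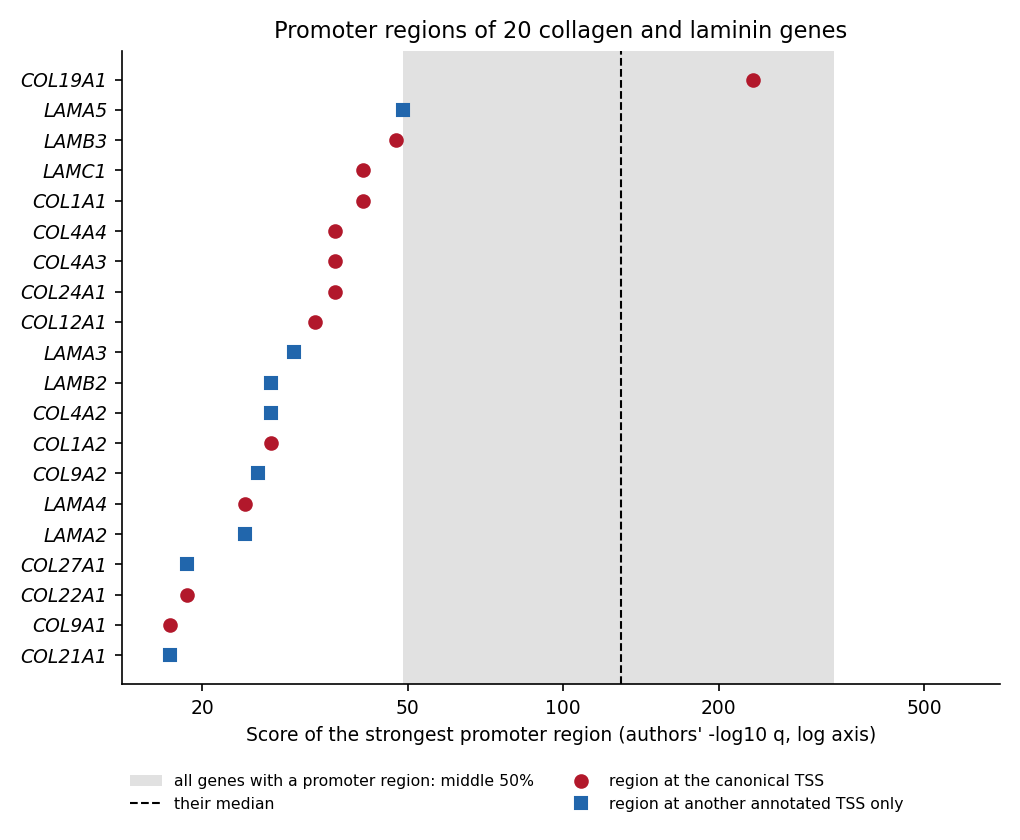
Score (−log10 q, log axis) of the strongest promoter region of each of the 20 collagen and laminin genes that have one, as red circles where a region lies at the canonical TSS and blue squares where it lies at another TSS only. The grey band is the middle 50% of all genes with a promoter region and the dashed line their median of 129.6. COL19A1, at 234, is the only gene to the right of that line.

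The sequences at the strongest promoter regions are shown because they carry the highest promoter scores. COL4A3, COL4A4 and COL24A1 are tied, and the COL4A3 region is also that of COL4A4. Each is a window of the hg19 plus strand at or near the centre of its region, and capitals mark matches to a consensus motif on either strand.
COL19A1, chr6:70576556-70576676: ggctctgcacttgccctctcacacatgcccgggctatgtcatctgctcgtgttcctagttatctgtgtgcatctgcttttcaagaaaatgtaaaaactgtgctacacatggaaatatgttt
LAMA5, chr20:60912699-60912819: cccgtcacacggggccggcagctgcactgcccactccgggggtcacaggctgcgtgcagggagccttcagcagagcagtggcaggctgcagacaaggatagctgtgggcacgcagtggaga
LAMB3, chr1:209826474-209826594, AP-1, NF-kB and RUNX matches: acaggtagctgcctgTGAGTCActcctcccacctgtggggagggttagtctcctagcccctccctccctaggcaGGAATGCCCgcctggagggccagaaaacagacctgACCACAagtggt
COL1A1, chr17:48278048-48278168, GC box match: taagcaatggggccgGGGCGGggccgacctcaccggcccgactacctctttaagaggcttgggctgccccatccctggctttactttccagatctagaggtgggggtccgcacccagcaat
LAMC1, chr1:182993238-182993358: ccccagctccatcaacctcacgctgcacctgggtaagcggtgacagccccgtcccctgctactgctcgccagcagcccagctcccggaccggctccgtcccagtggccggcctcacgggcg
COL24A1, chr1:86622426-86622546, PU.1/SPIB match: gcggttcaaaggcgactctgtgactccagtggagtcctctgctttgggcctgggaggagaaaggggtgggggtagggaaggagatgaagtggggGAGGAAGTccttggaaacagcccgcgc
COL4A3, chr2:228028328-228028448: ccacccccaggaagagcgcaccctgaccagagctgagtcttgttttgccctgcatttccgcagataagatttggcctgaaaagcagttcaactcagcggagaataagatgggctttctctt
The windows of COL19A1 and COL24A1 were moved off the centre to keep to 30 bases of untranslated sequence. LAMB3 matched 3 of the 13 motifs in its window, COL1A1 and COL24A1 matched 1 each, and COL19A1, LAMA5, LAMC1 and COL4A3 matched none. A match describes the letters only and does not show that a factor bound.

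Among the FACIT collagens, which sit on the surface of fibrils, 6 of 10 genes had a promoter region, 4 of them at the canonical TSS. COL19A1, a FACIT chain found in basement membrane zones, had its strongest region in exon 1, 39 bp from the TSS, and a further region of score 71.4 in intron 1. Both also lie within 1 kb of a TSS of LMBRD1, a neighbouring gene of vitamin B12 export from lysosomes, so the list cannot assign them to either gene. The other 3 regions lay in intron 2 of COL19A1, the strongest with a score of 82.1. COL12A1, a chain of fibril surfaces in tendon and skin, had a promoter region of 33.1 and 2 stronger regions upstream of its TSS (45.8 at 1711 bp and 44.2 at 2827 bp from the nearest TSS). COL9A1 and COL9A2, chains of cartilage collagen IX, had scores of 17.3 and 25.7, while the third chain, COL9A3, had no region within 10 kb. COL14A1, COL16A1, COL20A1 and COL9A3 had no promoter region, though a region of score 42.6 lay 1341 bp from the nearest TSS of COL14A1.

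The fibrillar collagens, which make up the fibrils of skin, bone and cartilage, had a promoter region at 4 of 11 genes. COL1A1 and COL1A2, the chains of collagen I, each had a region in intron 1 near the canonical TSS, with scores of 41.0 and 27.2. Both regions also lie within 1 kb of the TSS of a non-coding RNA gene, so they cannot be assigned to the collagen gene alone. COL24A1 was the member of this class with a region centred on its canonical TSS (0 bp), and COL27A1 had a region of 18.7 at an internal TSS. COL11A1 had its nearest region 1160 bp and COL2A1 2349 bp from a TSS. COL3A1, COL5A1, COL5A2, COL5A3 and COL11A2 had none within 5 kb. COL5A2, a regulator of fibril width, had a strong region of score 195 in exon 2, 69490 bp from the canonical TSS and 47233 bp from its nearest TSS.

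Collagen IV genes lie in head-to-head pairs, and the pairs differed. COL4A3 and COL4A4, chains of the kidney glomerular basement membrane, start 419 bp apart and shared 3 promoter regions with scores of 36.2, 30.1 and 31.6. COL4A1 and COL4A2, the chains found in most basement membranes, also start next to each other, as do COL4A5 and COL4A6 (1416 bp apart). Neither of these pairs had a region within 10 kb of its canonical TSSs. The nearest region lay 34423 bp from the COL4A2 start and 138938 bp from the COL4A6 start. COL4A2 was counted as accessible through a region in intron 26 (27.2), 679 bp from an internal TSS.

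None of the 5 collagen VI genes, 3 genes of collagens VIII and X, 4 transmembrane collagens, 2 multiplexins or 3 other collagens had a promoter region. These classes are small, so a count of 0 carries little weight. The 5 collagen VI genes, which encode the beaded filaments around cells, had 2 regions in all within 10 kb, with scores of 24.3 (COL6A1) and 17.3 (COL6A3). COL6A5 and COL6A6 had their nearest region 150621 and 165067 bp from a TSS.

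Laminin alpha genes had a promoter region in 4 of 5 cases, beta genes in 2 of 4 and gamma genes in 1 of 3. LAMA5, the alpha chain of most mature basement membranes, had its region over exon 16 at an internal TSS, 29609 bp from the canonical TSS. LAMA3, an alpha chain of epithelia, and LAMA2, the alpha chain of muscle, were likewise accessible at internal TSSs alone (30.1 in intron 70 and 24.3 in intron 56). LAMA4, an alpha chain of vessels, had a region of 24.3 over exon 1. LAMA1, the alpha chain of early embryos, had none, and its nearest region lay 334739 bp away, the farthest of all 56 genes. LAMB3, a beta chain of the skin basement membrane, had 3 promoter regions, of which that at 764 bp upstream was the strongest (47.4) and that at 7 bp had 30.1. LAMB2, a beta chain of kidney and synaptic basement membranes, reached the count through a region of 27.2 beyond the end of the gene, 764 bp from a TSS of a minor LAMB2 transcript and also within 1 kb of a TSS of USP19. LAMC1, the gamma chain shared by most laminins, had 41.0 in intron 1 and 22.8 at 470 bp upstream, while LAMC3, LAMB1 and LAMB4 were among the laminin genes with no promoter region.

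Of the 36 genes without a promoter region, 5 had a region between 1 and 5 kb from a TSS and 25 had none within 10 kb. The median distance over all 36 was 19528 bp. Just inside the 1 kb window, by the region closest to a TSS, were LAMB2 (764 bp), COL4A2 (679 bp) and COL1A2 (582 bp). Just outside were COL11A1 (1160 bp), COL14A1 (1341 bp) and COL2A1 (2349 bp).

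**Figure D2:**
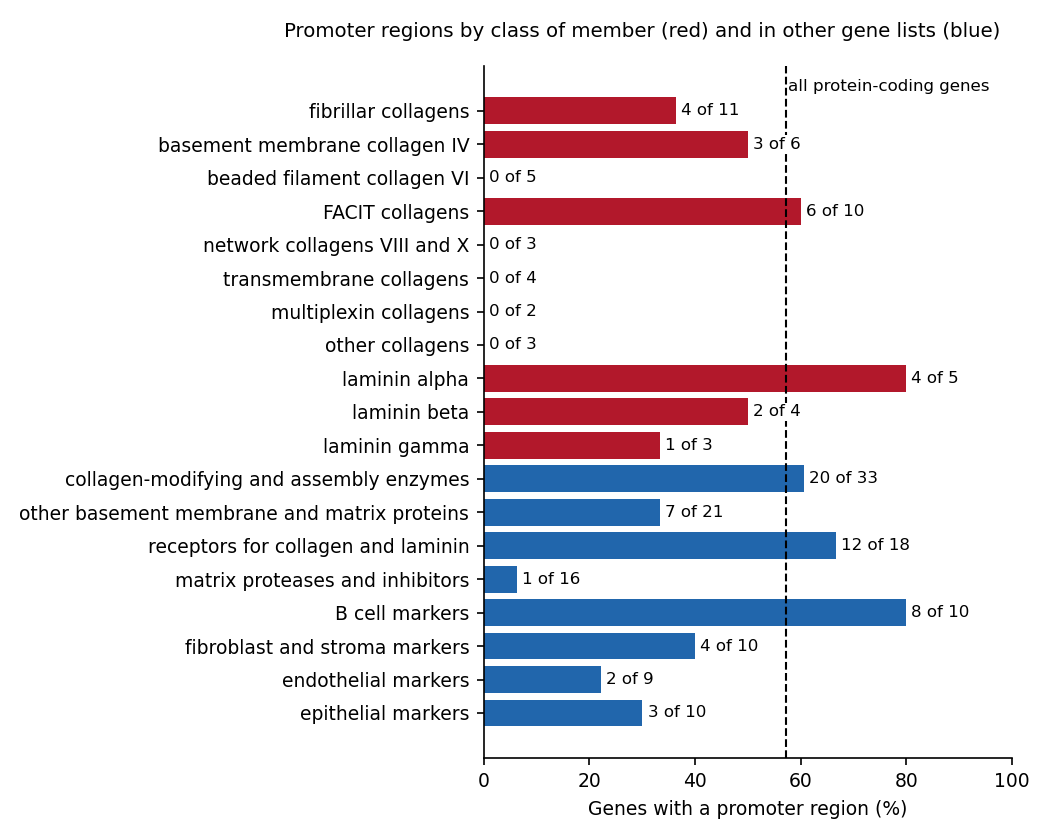
Promoter regions (% of genes) in each class of collagen and laminin genes (red) and in other gene lists (blue), with counts at the bars and a dashed line at 57.2%, the value over the whole annotation. Among the red bars, laminin alpha (4 of 5) and FACIT (6 of 10) genes lie above the line, and 5 collagen classes are at 0. At the canonical TSS, not drawn, the counts were 1 of 5 laminin alpha and 4 of 10 FACIT genes, against 53.0% of all genes.

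Promoter CpG content was close in collagen and laminin genes with and without a promoter region. Within 500 bp of the canonical TSS the 20 accessible members held a median of 54.5 CpG dinucleotides, against 58 in the other 36. Over all genes these medians were 76 with a promoter region and 33 without. The 12 collagen and laminin genes with a region at the canonical TSS itself had a median of 45 CpG. Split at 40 CpG, a value chosen after the counts were seen, 13 of 38 CpG-rich collagen and laminin genes had a promoter region (34.2%), against 72.5% of 14056 other CpG-rich genes. Among CpG-poor genes it was 7 of 18 (38.9%), against 22.0% of 5700 others. At the canonical TSS the counts were 7 of 38, against 69.0%, and 5 of 18, against 13.8%. Genes of like CpG count had a promoter region in 55.7% of cases. COL9A1 and LAMB3 had a promoter region with 12 and 16 CpG, while COL9A3, COL18A1 and LAMA1, all with more than 100, had none.

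**Figure D3:**
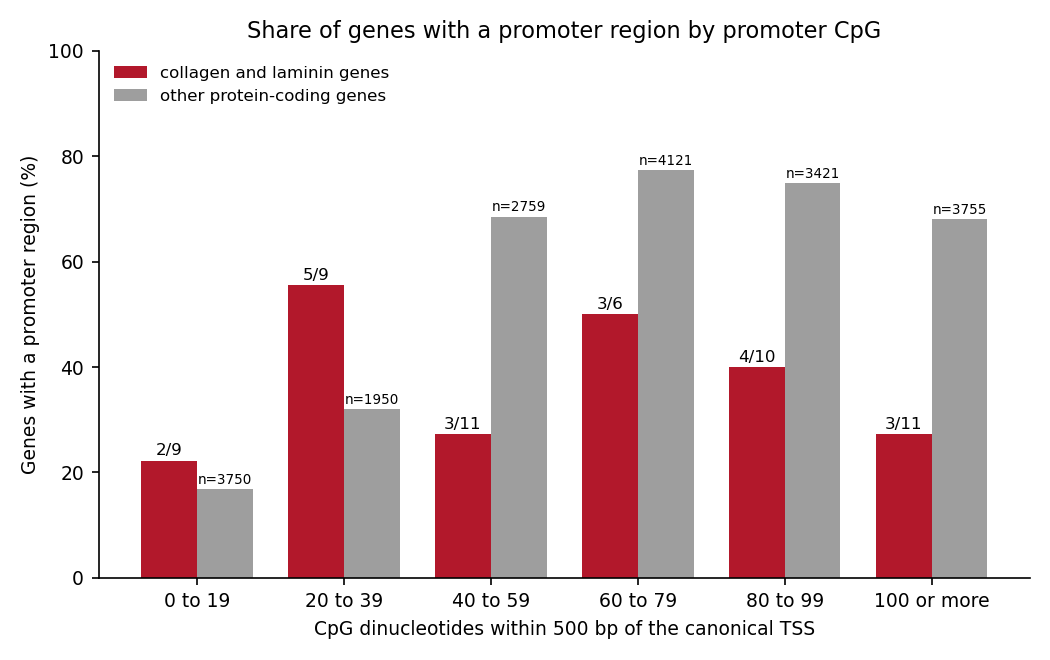
Genes with a promoter region (%) by the number of CpG dinucleotides within 500 bp of the canonical TSS, for collagen and laminin genes (red, with counts) and other protein-coding genes (grey, with the number of genes). The grey bars reach 68.1 to 77.3% from 40 CpG on, and the red bars there stay at 3 of 11 to 3 of 6.

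Regions over the whole gene and 10 kb on each side were counted next, and each gene was compared with the 200 other protein-coding genes nearest in span. The 56 genes held 140 regions, of which 3 were counted at a pair of genes. The mean was 2.5 regions per gene, against 3.94 for genes of like span, and the medians were 2 and 3. At least 1 region was found at 42 genes (75.0%), against 74.7% of all protein-coding genes, and 14 genes had none (25.0%), against 13.2% of genes of like span. In all, 43 genes (76.8%) lay below the mean of their own 200 genes, where 64.6% of those 200 genes themselves lay below it. Against the median of the 200 genes, 31 lay below, 7 were tied and 18 lay above. The collagen genes averaged 2.25, against 4.00 for like span, and the laminin genes 3.42, against 3.71. The 14 genes without a region were COL5A3, COL6A2, COL6A5, COL6A6, COL8A1, COL9A3, COL13A1, COL17A1, COL18A1, COL20A1, COL28A1, LAMA1, LAMB1 and LAMC3.

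A total of 3 genes reached at least 2 times the mean of like span. COL4A2 had 13 regions, against 4.87, and 6.5% of its 200 genes had more. LAMB3 had 8, against 2.43, and 3.0% had more. LAMB4, a little-studied beta chain, had 7, against 3.20, and 8.5% had more. These 3 genes held 20.0% of the 140 regions, and the remaining 53 averaged 2.11, against 3.97 for like span. The 3 were left out for their high counts, while the genes of like span kept theirs. The gap for the 53 is therefore wider by construction and adds no evidence. Each region is a summit, and summits of the same called peak were counted separately.

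The genes with 3 or more regions that follow are given with the mean of genes of like span in parentheses. COL23A1 had 7 (against 6.40), COL21A1 6 (6.60) and LAMA2 6 (7.12). There were 5 regions at COL19A1 (6.45), LAMA3 (5.31), LAMA4 (4.51), COL27A1 (4.35), COL4A3 (4.96) and COL4A4 (4.30). There were 4 regions at COL12A1 (4.00), COL14A1 (5.96), COL15A1 (4.74), COL22A1 (6.70), COL25A1 (7.76) and LAMA5 (2.74). COL2A1 (2.095), COL11A1 (4.74) and COL24A1 (6.82) had 3 each.

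**Figure D4:**
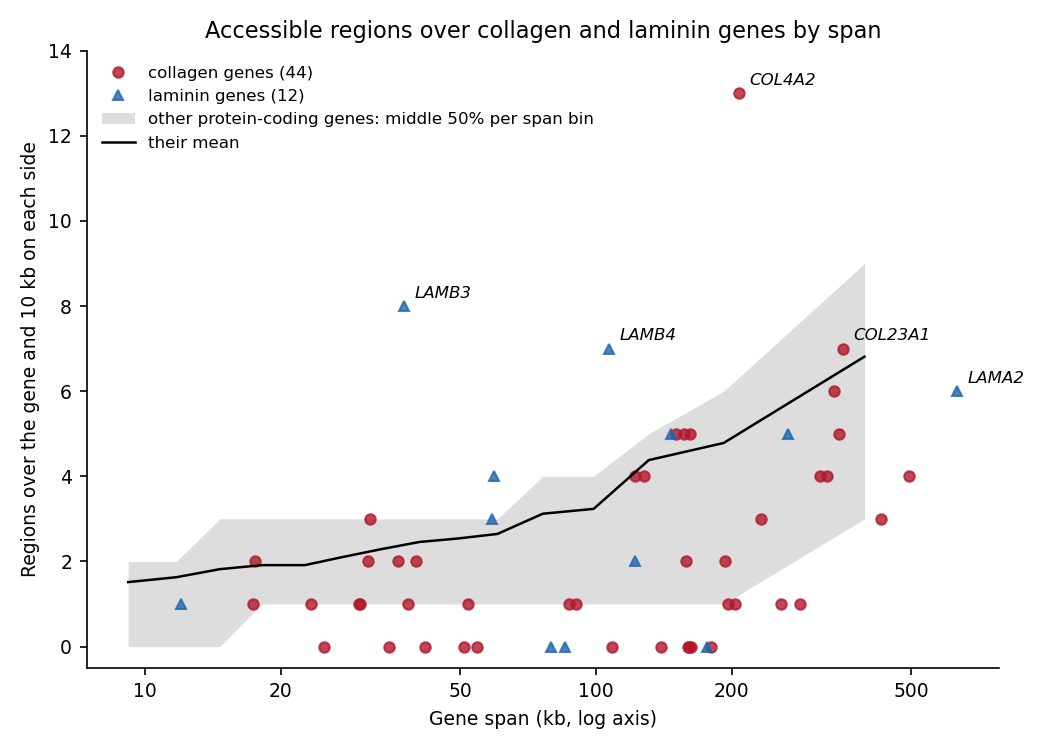
Number of regions over each collagen (red circles) and laminin (blue triangles) gene and 10 kb on each side, by gene span (kb, log axis). The black line is the mean and the grey band the middle 50% of other protein-coding genes in span bins. COL4A2 (13), LAMB3 (8) and LAMB4 (7) stand above the band and many collagen genes lie at 0 or 1.

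Among the distinct regions, 29 were promoter regions of the collagen and laminin genes. Most of the others lay in introns (71), with 13 upstream of the gene, 17 downstream, 2 in exons and 5 in the gene outside the canonical transcript. The median score of all of them was 25.7, against 31.6 over the whole list, and 11 scored above 100. The lowest of these 11, at 100.65, ranked 9676 among the 50000 regions, so scores above 100 were not rare in the list. The share of regions above 100 was not tested against that of the list. Of these 11, 5 lay within 1 kb of a TSS of another protein-coding gene, namely at COL7A1 (305, at PFKFB4), COL19A1 (234, at LMBRD1), COL2A1 (163.8, at TMEM106C), LAMA5 (102.5, at ADRM1) and COL16A1 (100.65, at PEF1). The other 6 were 3 in COL4A2 and 1 each in COL23A1, COL5A2 and near LAMB4.

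The 13 regions of COL4A2 lay inside the gene, from 34423 to 164638 bp after the canonical TSS. Scores were 20.1 and 22.8 in intron 3, 31.6 to 93.2 over 4 regions in intron 4, and 74.9 and 39.4 in intron 16. Introns 20, 24 and 26 had 1 region each, with scores of 141.5, 36.2 and 27.2, and intron 28 had 2, with 104.4 and 341. The last is the strongest region at any collagen or laminin gene. COL23A1, a transmembrane collagen, had 5 regions in intron 2, with scores from 16.0 to 203. LAMB4 had 4 regions between 2803 and 5277 bp upstream of its TSS, the farthest with a score of 176.15, and none closer. Those at 2803 and 3362 bp were summits of 1 called peak, and those at 4768 and 5277 bp of another. The 2 regions in intron 28 of COL4A2 likewise shared 1 peak.

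The sequences at the 4 strongest regions away from any protein-coding TSS, chosen after their scores were seen, are given for comparison with the promoters above. They are the hg19 plus strand with motif matches in capitals.
COL4A2, intron 28, chr13:111124209-111124329: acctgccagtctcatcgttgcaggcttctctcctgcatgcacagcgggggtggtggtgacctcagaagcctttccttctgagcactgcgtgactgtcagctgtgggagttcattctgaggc
COL23A1, intron 2, chr5:177751565-177751685, RUNX and GC box matches: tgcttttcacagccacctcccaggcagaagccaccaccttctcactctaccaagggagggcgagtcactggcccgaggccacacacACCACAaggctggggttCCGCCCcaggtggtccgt
COL5A2, exon 2, chr2:189974860-189974980, IRF, TATA box and CCAAT matches: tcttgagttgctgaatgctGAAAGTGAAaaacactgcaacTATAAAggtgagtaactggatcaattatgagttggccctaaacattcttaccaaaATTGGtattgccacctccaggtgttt
LAMB4, upstream, chr7:107776023-107776143: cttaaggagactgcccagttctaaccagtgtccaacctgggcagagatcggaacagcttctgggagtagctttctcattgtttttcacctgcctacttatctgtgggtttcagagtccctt
The COL5A2 window was moved for the same reason as above. The windows of COL4A2 and LAMB4 matched none of the 13 motifs, although theirs were among the highest scores.

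**Figure D5:**
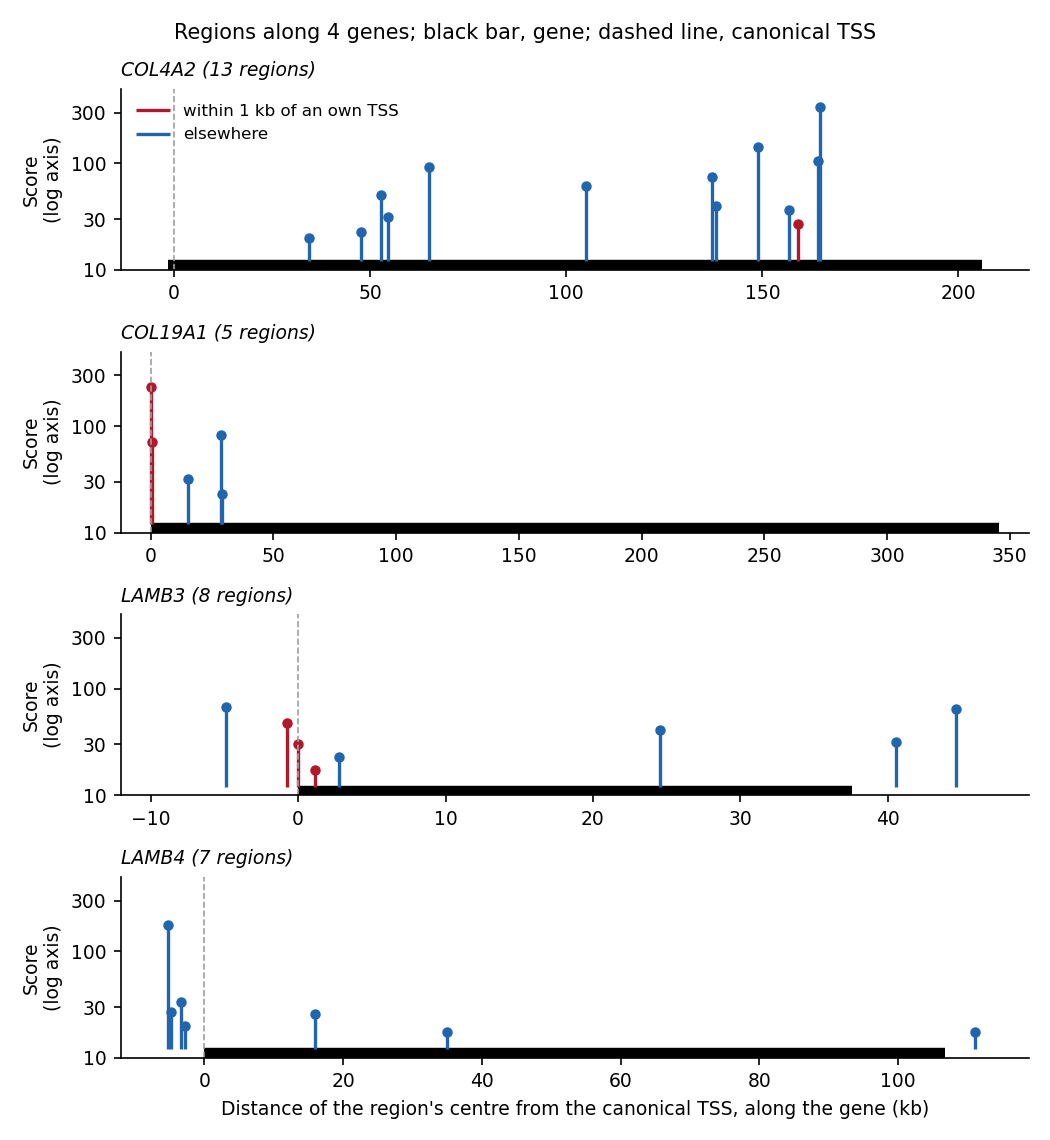
Score (log axis) of each region along COL4A2, COL19A1, LAMB3 and LAMB4 by distance from the canonical TSS (kb), in red within 1 kb of a TSS of the gene and in blue elsewhere. The regions of COL4A2 begin 34423 bp inside the gene, whereas COL19A1 has its strongest region, 234, at the TSS.

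The 13 consensus motifs were looked for in the 29 promoter regions of collagen and laminin genes, on both strands, beside all 16365 promoter regions of the list. The GC box of SP and KLF factors (GGGCGG) was present in 15 of 29 (51.7%), against 68.9%. The ETS motif (CCGGAAG) was in 1 (3.45%), against 18.0%, and the NRF1 motif (GCGCATGCG) and the cyclic AMP response element (TGACGTCA) in 0, against 3.05 and 2.72%. The RUNX motif (TGTGGT) was in 8 (27.6%, against 19.6%), AP-1 (TGANTCA) in 4 (13.8%, against 9.01%) and PU.1/SPIB (GAGGAAGT, which shares its GGAAG core with the ETS motif) in 3 (10.3%, against 4.28%). CCAAT was in 13 (44.8%, against 42.8%), and the EBF1 motif (TCCCNNGGG) in 4 (13.8%, against 16.8%). For 2 motifs the side depended on the width searched. The interferon-stimulated element (GAAANNGAA) was in 5 whole regions (17.2%, against 11.5%) but in 1 within the central 200 bp (3.45%, against 4.52%). The NF-kB motif (GGGNNTTCC) was in 3 whole regions (10.3%, against 12.8%) and in 3 within the central 200 bp (10.3%, against 5.95%). Mean GC content was 57.3%, against 61.3%, so the 2 sets differ in base composition. The counts are small and were not tested.

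Genes that act on or with collagens and laminins were set beside them, and the same background of 57.2% applies. Of 33 collagen-modifying and assembly enzymes, 20 had a promoter region (60.6%), 19 of them at the canonical TSS (57.6% of the list), with a median score of 78.6. They were led by MIA3 (567), which loads collagen into transport vesicles, P4HA1 (466), a prolyl hydroxylase subunit, and SEC23A (357), a coat protein of those vesicles. SERPINH1, the collagen chaperone, had 28.6. Of 18 receptors for collagen and laminin, 12 had a promoter region (66.7%) but 8 had one at the canonical TSS (44.4%, against 53.0% of all genes). They were led by RPSA (1125), a ribosomal protein also described as a laminin receptor, ITGA7 (199, at a promoter shared with BLOC1S1) and ITGB1 (150), the common integrin beta chain. LAIR1, a collagen receptor of immune cells, had 25.7. Other basement membrane and matrix proteins had a promoter region in 7 of 21 cases (33.3%), among them TNC (309), AGRN (69.6), NID1 (42.6), which links laminin to collagen IV, and FN1 (36.2). Matrix proteases and their inhibitors had one in 1 of 16 cases (6.25%), TIMP1 (104.4).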

How the data were processed

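Single-cell ATAC-seq libraries of GM12878 (96 and 95 on 2 plates) were described by 1 list of regions. Per the study's methods and the submitters' processing notes, the authors mapped reads to hg19 with Bowtie2 2.1.0, removed duplicates with Picard 1.79 and called summits with MACS2 (version not given in the sources used here) on the aggregated cells at q of 0.05. They kept the 50000 of lowest q at fixed width. The score is the −log10 of the q-value as deposited by the authors. The list gives neither values nor read counts per cell, and 3102 regions tie at the lowest score.

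Genes and TSSs were those of GENCODE 44 mapped to GRCh37, and regions were placed by their centre. Genes of like span were the 200 nearest in log span, and genes of like CpG count were chosen the same way. No test was made across samples, because there is 1 pooled list. Intervals are exact binomial (95%). All members with a promoter region, and those with 3 or more regions or at least 2 times the mean of like span, were named, with sequence for the highest promoter scores. Some genes that this rule names are not reported here. Members, gene lists and motifs were chosen with earlier results of these data known. The endothelial list lost 1 of 10 genes, which had no match in the annotation. Counting was tested on simulated data with 2000 genes, with 100% counted right. Software was pysam 0.24.0, scipy 1.17.1, pandas 2.3.3 and numpy 2.4.6 under Python 3.11.15.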

Additional observations from a re-analysis of the deposited data

How the results depend on the processing

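The count of 20 collagen and laminin genes with a promoter region depended most on which TSSs and scores were used. It was 13 at the outermost TSS alone (49.2% of all genes), 12 at the canonical TSS alone (53.0%) and 9 with regions above the median score (48.3%). With a window of 500 bp it was 17 (54.8% of all genes), without COL1A2, COL4A2 and LAMB2. With 2.5 kb it was 23 (60.3%), with COL2A1, COL11A1 and COL14A1 added. The ratio of the mean number of regions to that of genes of like span was 0.634. It was 0.421 with regions above the median score (0.857 against 2.04 regions) and 0.608 to 0.743 in the other settings. Among the latter, it was 0.678 with summits of 1 called peak counted once (2.30 against 3.40 regions). With motifs searched in the central 200 bp, the difference in share between promoter regions of collagen and laminin genes and all promoter regions turned from -2.41 to 4.39 percentage points for NF-kB and from 5.77 to -1.07 for the interferon-stimulated element. Motif shares aside, the other alternatives lay within 1.5 times the reported value. No paired analysis was possible because there is 1 group and 1 pooled list. For the same reason no library could be left out. The list holds the 50000 regions of lowest q, so weak promoters fall below its limit.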

Other observations

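Away from promoters, 98 regions at collagen and laminin genes were set beside all 33635 distal regions of the list, those more than 1 kb from any protein-coding TSS. The NF-kB consensus (GGGNNTTCC) was present in 18 of 98 (18.4%), against 10.6%, and the EBF1 consensus (TCCCNNGGG) in 15 (15.3%), against 10.8%. The RUNX consensus was in 36 (36.7%), against 39.3%, and AP-1 in 17 (17.3%), against 20.8%. Also rarer were the interferon-stimulated element (14.3%, against 17.0%), PU.1/SPIB (3.06%, against 5.56%) and the octamer ATTTGCAT (3.06%, against 3.89%). Within the central 200 bp RUNX was level (20.4%, against 20.2%). Mean GC content was 50.0%, against 49.3%, and the median score 24.3, against 25.7. Regions of 1 gene are not independent, and these differences were not tested.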
